A study of Mus musculus with 16 samples.

Results

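The 4 libraries exposed to trifloxystrobin, at 30, 100, 300 and 1000 nM, were compared with the 2 libraries that received DMSO, the solvent. These 6 libraries belong to a series of 16, and 9778 of the 54658 genes listed had an average over 10 CPM (counts scaled to the library total) in them and were tested. All were made from C17.2α cells, a line of neural cells from mouse cerebellum that expresses the thyroid hormone receptor TRα1 from an added gene. The cells grew in medium with newborn calf serum stripped of thyroid hormone with charcoal, the labels of these 6 libraries name no T3, and RNA was taken 24 h after trifloxystrobin or DMSO was added. The treatment field of the controls reads Untreated, and their titles give DMSO. Each concentration is 1 library, so the 4 concentrations served as the replicates of the compound, and their spread includes any response to concentration. By the study's account the libraries came from 1 experiment, so p-values measure only the spread between these samples, which may be technical.

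Trifloxystrobin is a fungicide of the strobilurin class. Strobilurins bind cytochrome b of respiratory complex III and block the transfer of electrons in the mitochondrial inner membrane. In mammalian cells, a failing respiratory chain is known to engage the integrated stress response, in which phosphorylation of the initiation factor eIF2α favours translation of the transcription factor ATF4. ATF4 in turn activates genes for amino acid synthesis and uptake, tRNA charging and redox balance, many of them through a short element that combines sites for C/EBP and ATF proteins.

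The total count per library ranged from 13044534 at 30 nM, the shallowest of the 6, to 17818542 at 100 nM, the deepest. The second DMSO library held the same count for every gene as a library labelled azoxystrobin at 100 nM, so whether it is a solvent control rests on its label alone. The DMSO libraries themselves differed by a median of 0.10 log2 per gene (28 genes, 0.286%, over 1.5-fold apart). The log2 ratio to DMSO also followed the GC content of the transcripts, with r across genes of -0.336, -0.288, -0.392 and -0.0659 from 30 to 1000 nM, and r was 0.405 for the difference between the DMSO libraries. Vim, Cd44, Nes and Sox2, which mark neural progenitors, were abundant in the 6 libraries (Vim 2600 to 3330 CPM), whereas Pax6 and Fabp7 stayed under 1 CPM. The fibroblast genes Col1a1 and Col3a1 were also abundant, with at least 2150 CPM in every library. Of 18 listed neuron markers 2 passed the minimum, Map2 (117 to 144 CPM) and Tubb3 (14.3 to 24.8 CPM), while Snap25 stayed under 1 CPM and Dcx, Rbfox3 and Stmn2 had no count. The listed markers of microglia, blood and endothelium summed to 1.82 to 3.75 CPM. Whether counting used the strand is not given in the sources used here, so genes overlapped by another on the opposite strand may hold reads of the partner. Many genes named here are of this kind, among them Atf5, Slc7a11, Ddit3, Cdc45, Rbm3, Thra, Notch3, Phyhipl, Cdkn1a, Srebf1, Uqcrc2, Srrm2, Aven, Ndufb5, Oip5 and Cxcl10.

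Among the lists examined, the widest differences between the 6 libraries were in integrated stress response genes, which were low at 100 nM and high at 30 nM, opposite to genes of DNA replication and mitosis. The promoters of some of these genes carry the motifs known for each program, and the windows below show them, because these are the genes whose values set the libraries apart. They are RefSeq promoter sequences (GRCm38.p6), read 5′ to 3′ on the strand of the gene and ending at or before its start, with matches in capitals. For the stress response the letters searched were TGATGNAA on both strands, the composite element of C/EBP and ATF. For replication the letters were TTTGGCGC or TTTCCCGC on both strands, a form of the E2F element.
Chac1 (chr2:119351019-119351086, plus strand): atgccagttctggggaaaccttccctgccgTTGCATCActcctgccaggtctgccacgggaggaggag
Slc7a11 (chr3:50443623-50443709, minus strand): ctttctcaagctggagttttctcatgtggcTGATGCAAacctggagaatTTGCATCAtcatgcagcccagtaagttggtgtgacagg
Asns (chr6:7693210-7693262, minus strand): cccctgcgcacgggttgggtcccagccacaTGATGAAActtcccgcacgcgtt
Mcm6 (chr1:128359778-128359845, minus strand): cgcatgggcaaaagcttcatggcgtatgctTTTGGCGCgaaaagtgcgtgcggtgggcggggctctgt
Cdc6 (chr11:98907983-98908050, plus strand): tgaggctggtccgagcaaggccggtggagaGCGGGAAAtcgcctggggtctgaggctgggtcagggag
Slc7a11 holds the stress element on both strands, at 2 positions. Mcm6 holds another match to the replication motif, nearer to its start, in a window not printed. Within the 250 bases before the start, TGATGNAA was found for 9 of the 29 stress response genes with a RefSeq promoter, against 3.91% of 27025 genes, and for 1 of 35 replication genes. The replication motif was found for 6 of 35 replication genes, 1 of 39 mitosis genes and 0 of 29 stress response genes, against 1.51% of all genes. A match is a string of letters in this window, and binding was not measured. The lists were written by hand for each program, so these shares say nothing about the differences between the libraries. The cause of those differences was not tested.

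Chac1 encodes an enzyme that breaks down glutathione. It lies at chr2:119351229-119354381 on the plus strand (GRCm38). Its level was 22.6 and 33.5 CPM in the DMSO libraries, 46.2 at 30 nM, 2.96 at 100 nM, 32.4 at 300 nM and 28.6 at 1000 nM. The 100 nM library was thus far below both DMSO libraries while the 300 nM and 1000 nM libraries lay between them. Trib3, a pseudokinase induced by ATF4, was at 23.6 and 36.2 CPM in DMSO and at 60.3, 8.25, 31.6 and 32.5 CPM from 30 to 1000 nM. Atf5, which encodes a transcription factor related to ATF4, was at 75.2 and 101.8 CPM in DMSO and at 134.5, 25.3, 98.5 and 87.9 CPM from 30 to 1000 nM. For both genes, 30 nM lay above the DMSO libraries, 100 nM below them, and the higher concentrations inside or close to their range.

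Genes of amino acid supply followed the same order. Slc7a11, which imports cystine, was at 22.4 and 35.0 CPM in DMSO, 52.5 at 30 nM, 9.10 at 100 nM, 39.1 at 300 nM and 31.4 at 1000 nM. Cth, which makes cysteine from cystathionine, was at 23.9 and 33.9 CPM in DMSO and at 57.4, 11.2, 38.3 and 31.0 CPM from 30 to 1000 nM. Asns, the asparagine synthetase, was at 169 and 229.7 CPM in DMSO and at 303.6, 103.3, 238.2 and 204.0 CPM from 30 to 1000 nM. Aldh1l2, a mitochondrial enzyme of folate metabolism, ran from 136.3 CPM at 100 nM to 546.3 CPM at 30 nM, and its DMSO values of 227.0 and 391.7 CPM also lay apart. Atf4 itself, at 659.3 and 688.2 CPM in DMSO, was at 841.8 CPM at 30 nM and at 405.7 CPM at 100 nM. At 300 and 1000 nM Atf4 was at 813.7 and 773.7 CPM, above both DMSO libraries.

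**Figure D1:**
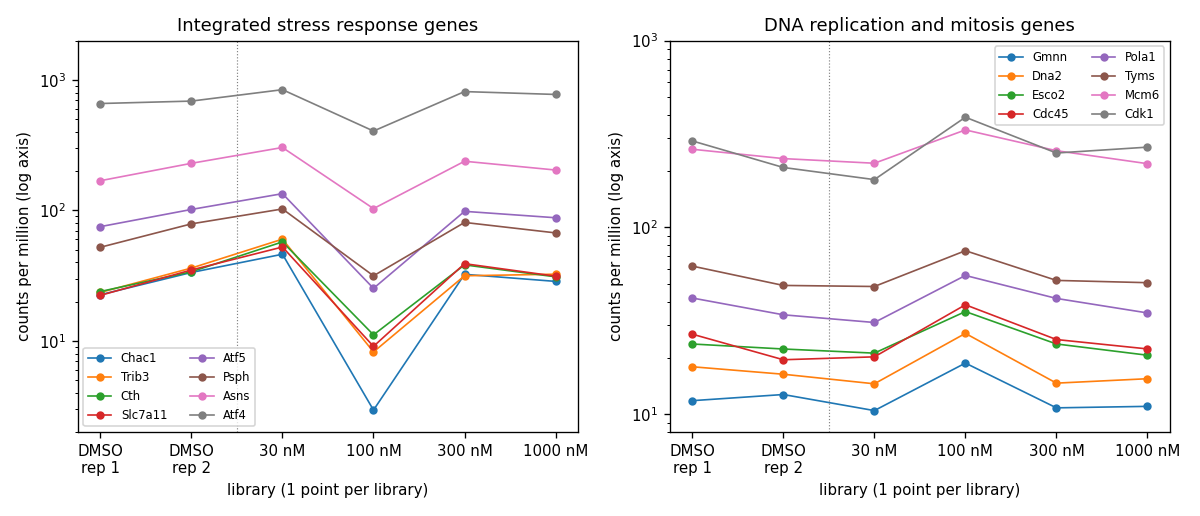
Level in CPM, on a log axis, of 8 integrated stress response genes (left) and 8 genes of DNA replication and mitosis (right) in each of the 6 libraries, 1 point per library. All 8 genes on the left are lowest at 100 nM and highest at 30 nM, and all 8 on the right are highest at 100 nM.

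Of the 32 listed genes of the integrated stress response and amino acid supply 30 were tested, and of these 28 had their lowest value of the 6 libraries at 100 nM (24.3% of all tested genes) and 25 their highest at 30 nM (16.3%). In the 100 nM library 19 of the 30 were over 1.5-fold below the DMSO mean, against 98 of the 9778 tested genes (1.0%), and 0 were over 1.5-fold above it (0.205% of tested genes). In the 30 nM library 10 of the 30 were over 1.5-fold above the DMSO mean (0.184% of tested genes) and 0 below it (0.0716%). The median log2 ratio of the list to the DMSO mean was 0.35, -0.75, 0.10 and 0.04 from 30 to 1000 nM, beside -0.001, 0.007, 0.000 and -0.004 over all tested genes. The DMSO libraries were apart along the same genes, with a median of -0.30 log2 for the first relative to the second. Once log2 values were corrected for GC and length, these medians at 30 and 100 nM were 0.38 and -0.69 log2. The 30 nM library was the shallowest and the 100 nM library the deepest, and the part of depth in these values was not tested. In RNA from whole cultures, fewer cells that express a gene and less RNA per cell cannot be told apart. Slc38a2, the most abundant member of the list and an amino acid transporter, was an exception, at 970.5 and 945.2 CPM in DMSO and 777.4 to 885.3 CPM in the trifloxystrobin libraries. Atf3, which is also an immediate early gene, was not lowest at 100 nM either. Its values were 9.56 and 12.1 CPM in DMSO and 18.7, 11.3, 15.6 and 19.9 CPM from 30 to 1000 nM.

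The aminoacyl-tRNA synthetases, which charge tRNAs and include several ATF4 targets, differed less between libraries. Of 30 tested, 18 were highest at 30 nM and 14 lowest at 100 nM, against 16.3% and 24.3% of all tested genes, with medians of 0.20 and -0.02 log2 in these libraries. Eprs and Gars, the most abundant, were at 513.1 and 293.2 CPM at 30 nM and at 306.4 and 176.3 CPM at 100 nM. The DMSO values were 307.4 and 413.5 CPM for Eprs and 191.8 and 245.6 CPM for Gars, so that the 100 nM values lay below the lower control, by about 1 CPM for Eprs and by more for Gars.

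Genes of DNA replication and nucleotide synthesis were mostly highest at 100 nM (39 of 42 tested, against 25.4% of all genes) and lowest at 30 nM (25 of 42, against 16.5%). Dna2, a nuclease and helicase of replication forks, was at 17.9 and 16.4 CPM in DMSO, 14.5 at 30 nM, 27.1 at 100 nM, 14.7 at 300 nM and 15.5 at 1000 nM. Cdc45, part of the replicative helicase, was at 26.8 and 19.6 CPM in DMSO and at 20.3, 38.5, 25.1 and 22.4 CPM from 30 to 1000 nM. Mcm6, another helicase subunit, was at 262.0 and 233.5 CPM in DMSO and at 220.5, 332.5, 257.3 and 219.3 CPM from 30 to 1000 nM. In all 3 genes only the 100 nM value lay above both DMSO values. The median of the list was -0.23, 0.36, -0.09 and -0.12 log2 from 30 to 1000 nM.

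The mitosis, spindle and kinetochore genes gave the same picture. Of 44 tested, 39 were highest at 100 nM (25.4% of all genes) and 35 lowest at 30 nM (16.5%), and the medians were -0.25, 0.35, -0.03 and 0.07 log2 from 30 to 1000 nM. Cdk1, the kinase that drives mitotic entry, was at 290.4 and 209.3 CPM in DMSO and at 180.2, 388.8, 250.1 and 268.9 CPM from 30 to 1000 nM. Mki67, the proliferation marker Ki-67, was at 967.9 and 799.8 CPM in DMSO and at 708.6, 1039, 884.7 and 867.6 CPM. The changes were smaller than for the stress response genes, as only 1 member of each of these lists was over 1.5-fold above the DMSO mean at 100 nM. The DMSO libraries differed here too, the first being higher by a median of 0.20 log2 for replication and 0.27 log2 for mitosis. Esco2 and Tyms-ps, named with Dna2 as the genes farthest above all other libraries at 100 nM, were at 35.4 and 19.7 CPM against at most 23.8 and 13.2 CPM elsewhere. Tyms-ps is a pseudogene whose reads may come from Tyms, which was at 75.0 CPM at 100 nM and at 48.3 to 62.1 CPM in the other libraries.

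With 1 library per concentration the 100 nM and 30 nM values have no replicate check. The test of the low concentrations (30 and 100 nM) against DMSO called 0 genes (0.0%), with 372 at an unadjusted p under 0.05 (edgeR quasi-likelihood test with Benjamini-Hochberg adjustment, as in all tests here unless DESeq2 is named, called at an adjusted p under 0.05). DESeq2 also called 0. When the 30 nM library was left out, 100 nM alone stood for the low concentrations and was assumed to vary like the other libraries. Under this assumption 247 genes were called against DMSO, 83 higher (0.849%) and 164 lower (1.68%). The lower ones included 22 of the 30 stress response genes, 7 of 30 tRNA synthetases and 9 of 39 collagen and extracellular matrix genes, and the higher ones 8 of 42 replication genes and 4 of 44 mitosis genes. Chac1 was 9.48-fold lower (log2 fold change -3.25, adjusted p = 3.21e-06), Atf5 3.5-fold lower (adjusted p = 7.98e-06) and Trib3 3.63-fold lower (adjusted p = 0.000269).

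Other genes called in this fit included Cd63, Nid2 and Eif4ebp1. Cd63, a tetraspanin of late endosomes and exosomes, was at 108.6 and 118.6 CPM in DMSO and at 122.0, 54.7, 100.9 and 108.5 CPM from 30 to 1000 nM, and was called 2.08-fold lower (adjusted p = 6.61e-05). Nid2, a basement membrane glycoprotein, was called 1.87-fold lower (adjusted p = 0.000295), and Eif4ebp1, a repressor of cap-dependent translation and an ATF4 target, 1.78-fold lower (adjusted p = 0.000941). Without the 30 nM library, 300 and 1000 nM together differed from 100 nM in 368 genes, 202 higher (2.07%) and 166 lower (1.7%), including 22 of 30 stress response genes higher and 19 of 42 replication genes lower. Both comparisons contain the 100 nM library. Of their calls, 154 genes had opposite signs, which is 62.3% of the first list and 41.8% of the second.

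The number of genes far from DMSO did not follow concentration. Over 1.5-fold higher or lower than the DMSO mean were 18 and 7 genes at 30 nM, 20 and 98 at 100 nM, 6 (0.0614%) and 5 (0.0511%) at 300 nM, and 30 (0.307%) and 14 (0.143%) at 1000 nM. Past 2-fold there were 2 genes at 30 nM, 13 at 100 nM, 1 at 300 nM and 1 at 1000 nM. The median distance of the 100 nM library to the other 5 was 0.126 to 0.141 log2 per gene, against 0.101 between the DMSO libraries and 0.117 to 0.13 from the first DMSO library to the other trifloxystrobin libraries. The 30 and 300 nM libraries were 0.0823 apart. The 30 nM library was closest to the second DMSO library, at 0.078.

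**Figure D2:**
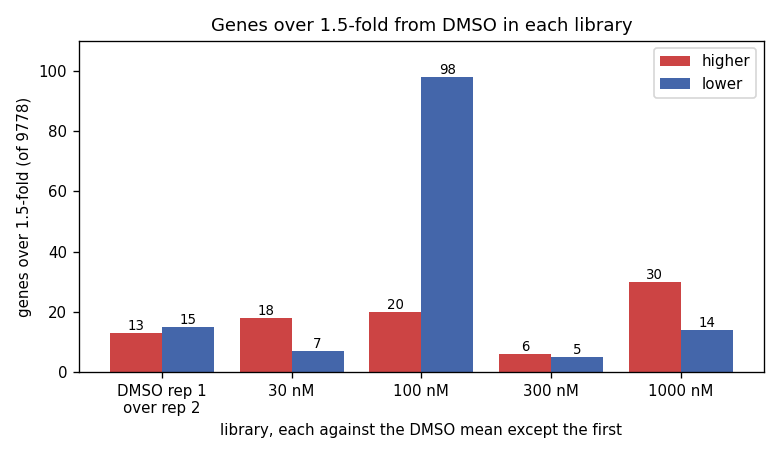
Number of genes over 1.5-fold higher or lower than the DMSO mean in each trifloxystrobin library, of 9778 tested, with the first DMSO library against the second on the left. The 98 genes lower at 100 nM make the tallest bar, and the 300 nM library has the shortest pair (6 and 5). Its counts are against a mean of 2 libraries, and against the DMSO libraries singly it differed past 1.5-fold in 51 and 18 genes, beside 28 between the DMSO libraries.

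**Figure D3:**
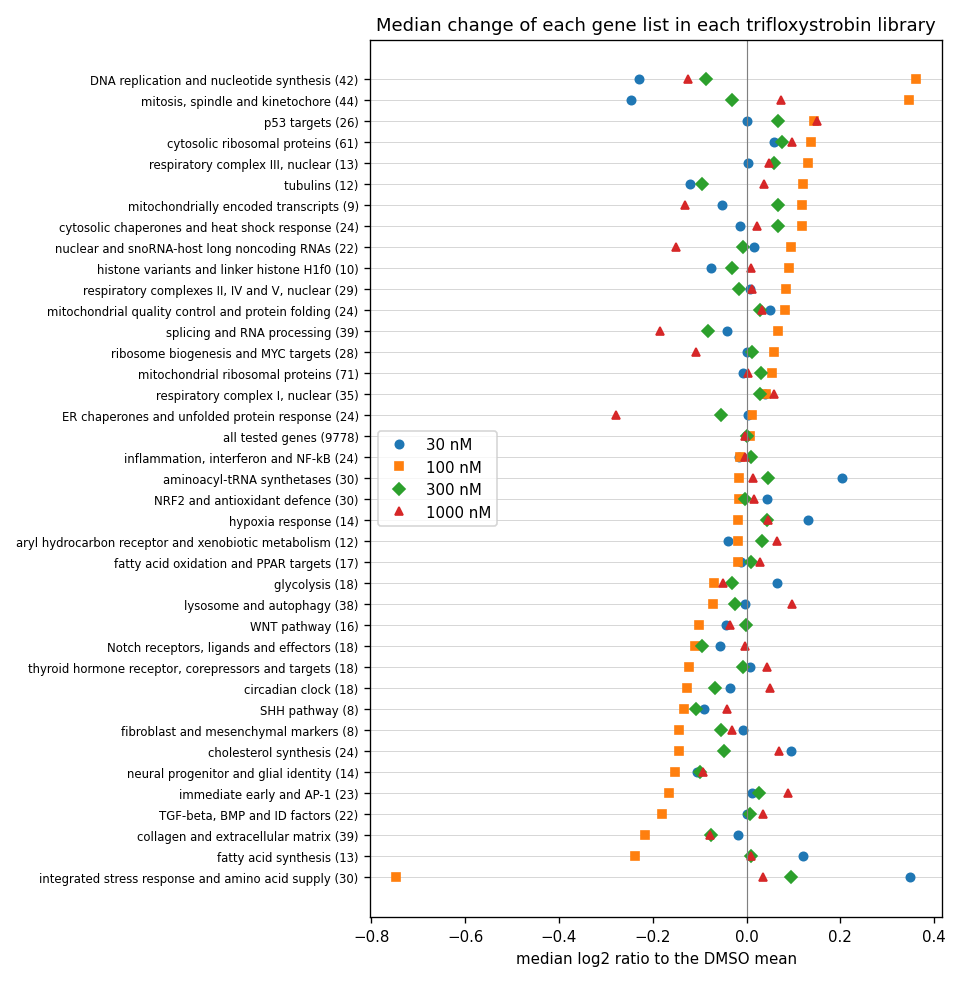
Median log2 ratio to the DMSO mean of each gene list with at least 8 tested genes (number in brackets) in the 4 trifloxystrobin libraries, ordered by the value at 100 nM. The integrated stress response genes (-0.75) and the replication and mitosis genes (0.36 and 0.35) at 100 nM lie farthest from 0.

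Other gene groups were also extreme at 100 nM, by smaller amounts, as the plot of list medians shows. Of 39 collagen and extracellular matrix genes, 24 were lowest at 100 nM, against 24.3% of all tested genes. Their median at 100 nM was -0.22 log2, and -0.12 log2 once corrected for GC and length. Col1a1, a chain of type I collagen, was at 4200 and 4857 CPM in DMSO and at 4198, 3097, 3480 and 3383 CPM from 30 to 1000 nM, so that all 4 libraries lay below both controls although 30 nM did so by only a few CPM. The fatty acid synthesis genes had medians of 0.12 at 30 nM and -0.24 at 100 nM, with Scd1, a stearoyl-CoA desaturase, at 1090 and 655.3 CPM in these libraries and 920.1 and 928.9 CPM in DMSO. Of the 24 genes of cholesterol synthesis, 15 were lowest at 100 nM and 12 highest at 30 nM, against 24.3% and 16.3% of all tested genes, and their medians were -0.14 and 0.10 log2. Among 22 TGF-beta, BMP and ID genes, 14 were lowest at 100 nM, against the same 24.3%.

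Taking the 4 concentrations together, no gene was called against DMSO. The test called 0 of 9778 genes (0.0%), DESeq2 also called 0, and 575 genes had an unadjusted p under 0.05, 223 of them higher. The smallest adjusted p was 0.815. The study itself reported called genes for trifloxystrobin from its own DESeq2 comparison of exposed samples with controls. The reason for this difference was not tested. In 776 genes (7.94%) all 4 trifloxystrobin libraries lay above both DMSO libraries and in 786 (8.04%) all 4 lay below.

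The genes with the smallest p among these had log2 fold changes of -0.40 to -0.31 where lower and 0.27 to 0.60 where higher. Ulk1, the kinase that starts autophagy (chr5:110784488-110810097, minus strand, GRCm38), was at 50.9 and 47.5 CPM in DMSO and at 38.1, 35.2, 39.2 and 36.7 CPM from 30 to 1000 nM (log2 fold change -0.40 ± 0.08 SE, adjusted p = 0.815). Hspg2, the basement membrane proteoglycan perlecan, was at 569.4 and 568.5 CPM in DMSO and at 439.2, 488.6, 445.4 and 442.7 CPM (-0.33 ± 0.07 SE). Ralgds, an exchange factor for Ral GTPases, Six5, a homeobox factor, Edc4, a scaffold of mRNA decapping, Ephb3, an ephrin receptor, and Cdip1 were also among the 8 lower genes, with log2 fold changes from -0.40 to -0.31. The values of each were below both controls at all 4 concentrations, and none followed concentration.

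Among the 8 higher genes, Rgs16, which speeds the shutdown of G protein signals, was at 82.6 and 81.2 CPM in DMSO and at 106.7, 103.7, 102.6 and 125.2 CPM from 30 to 1000 nM (0.42 ± 0.09 SE). Lpcat2, an enzyme of phospholipid remodelling, was at 11.5 and 10.8 CPM in DMSO and at 14.3 to 15.8 CPM with trifloxystrobin. Luzp2 was at 20.0 and 22.0 CPM in DMSO and at 26.2 to 28.8 CPM. Nebl, an actin-binding protein, was at 13.2 and 12.4 CPM in DMSO and at 19.7, 15.2, 20.6 and 22.6 CPM from 30 to 1000 nM (0.60 ± 0.15 SE). The others were the ribosomal protein gene Rps3a1 (0.34 ± 0.08 SE), Gm15500, Rpl3-ps1 and AC087802.1. Rpl3-ps1 is a pseudogene by its name and Gm15500 by its annotation, so their reads may come from other copies. Without the 100 nM library 3 genes (0.0307%) were called, Nebl higher (adjusted p = 0.0463) and Rsrp1 (adjusted p = 0.0463) and mt-Tp (adjusted p = 0.0145) lower.

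In the test of the 4 concentrations against DMSO, no gene of the respiratory chain was called. Fits with a library left out are not covered by this statement. The complex III genes, which encode the target of the strobilurins together with mitochondrial mt-Cytb, had a median log2 fold change of 0.06 over 13 tested nuclear members, and 4 of 13 were above both controls in all 4 libraries and 1 below, against 7.94% and 8.04% of all tested genes. Uqcrb, a small subunit, was at 33.4 and 37.2 CPM in DMSO and at 41.4, 49, 44.9 and 41.0 CPM from 30 to 1000 nM (0.32 ± 0.10 SE, adjusted p = 0.815). With 100 nM alone against DMSO, Uqcrb had a log2 fold change of 0.47. Uqcrc2, a core subunit, was at 41.3 and 37.3 CPM in DMSO and at 44.2 to 45.5 CPM with trifloxystrobin. The cytochrome b transcript mt-Cytb was at 16830 and 16050 CPM in DMSO and at 13910, 16940, 15970 and 13470 CPM, below both controls at 30, 300 and 1000 nM and above them at 100 nM. In complex I, 7 of 35 genes were above both controls and 0 below, against 7.94% and 8.04% of all tested genes, with a median of 0.05 log2. Ndufb5 was at 172.2 and 186.9 CPM in DMSO and at 193.0 to 216.8 CPM, and Ndufb4 stood out at 300 nM, with 35.6 CPM against 24.7 to 27.6 CPM in the other libraries. Summed over the 9 tested mitochondrially encoded transcripts, the level was 93980 and 96720 CPM in DMSO and 96060 to 103400 CPM with trifloxystrobin. A few abundant transcripts dominate this sum, and 6 of the 9 were under the DMSO mean at 30 nM, 2 at 100 nM, 2 at 300 nM and 7 at 1000 nM.

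Among the lists of at least 30 tested genes, the cytosolic ribosomal protein genes had the highest share above DMSO. All 4 libraries lay above both controls for 15 of 61 genes and below for 2, against 7.94% and 8.04% of all tested genes. The median of the list was 0.11 log2. An unadjusted p under 0.05 was found for 13 of the 61, beside 575 of all 9778 tested genes. Rpl39 was at 69.5 and 75.4 CPM in DMSO and at 87.8, 88.8, 111.7 and 88.2 CPM from 30 to 1000 nM (0.38 ± 0.11 SE). Rps3a1 was at 116.1 and 128.4 CPM in DMSO and at 147.9 to 167.8 CPM with trifloxystrobin. The most abundant member, Rplp0, differed less, with a log2 fold change of 0.06 ± 0.07 SE. Many of these genes have processed pseudogenes that can share their reads.

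On the lower side, 7 of 39 collagen and extracellular matrix genes and 5 of 14 neural progenitor and glial identity genes were below both controls at all concentrations, against 8.04% of all tested genes, while 0 and 1 were above (7.94%). Sox9, a factor of glial progenitors, was at 35.6 and 30.1 CPM in DMSO and at 24.7, 23.7, 26.4 and 27.7 CPM from 30 to 1000 nM (-0.36 ± 0.10 SE). Id3, an inhibitor of bHLH factors, was at 43.1 and 46 CPM in DMSO and at 36.5, 34.0, 40.3 and 35.0 CPM (-0.29 ± 0.09 SE). The progenitor marker Vim did not share this, with a log2 fold change of 0.00 ± 0.10 SE. The collagen list had medians of -0.22, -0.08 and -0.08 log2 at 100, 300 and 1000 nM. Corrected for GC and length, these medians were -0.12, -0.01 and -0.02 log2. Srebf1 and Fasn, a regulator and the main enzyme of fatty acid synthesis, were below both controls in all 4 libraries (-0.26 ± 0.07 SE and -0.24 ± 0.07 SE). Of the lists on inflammation, hypoxia, circadian clock and xenobiotic metabolism, none had more than 2 members above both controls or 1 below.

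A trend on the log10 of the concentration over the 4 libraries called 0 genes (0.0%), with 146 at an unadjusted p under 0.05, and DESeq2 also called 0. The 4 values were in rising order in 289 genes (2.96%) and in falling order in 327 (3.34%), and the ratio between 30 and 1000 nM was over 5 to 4 in 45 (0.46%) and 48 (0.491%) of them. Phyhipl had the widest rise that left the DMSO range at every concentration. It was at 23.4 and 19.1 CPM in DMSO and at 24.2, 26.0, 28.0 and 36.1 CPM from 30 to 1000 nM. Ttyh1, of a family of membrane proteins abundant in neural cells, rose from 14.2 to 20.2 CPM with 13.9 and 13.6 CPM in DMSO.

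The other rising genes began below the controls. Notch3, a Notch receptor, was at 23.8 and 16.2 CPM in DMSO and at 16, 18.8, 19.7 and 24.4 CPM from 30 to 1000 nM, so that only the 1000 nM value passed both controls, by less than 1 CPM. Dact3, a Dishevelled-binding antagonist of WNT signals, went from 29.6 to 44.5 CPM with 36.8 and 37.6 CPM in DMSO, and Capn5, a calpain protease, from 20.1 to 30.2 CPM with 27.4 and 25.4 CPM in DMSO.

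In the falling order, Srsf5 and Etv5 began at the controls and ended below them. Srsf5, a splicing factor of the SR family (chr12:80945504-80950507, plus strand, GRCm38), was at 106.7 and 116.3 CPM in DMSO and at 108.3, 103.9, 75.4 and 71.7 CPM, with a step between 100 and 300 nM. Etv5, an ETS factor downstream of FGF signals, was at 27.1 and 23.8 CPM in DMSO and at 24.6, 21.7, 18.9 and 16.6 CPM. Kcnq1ot1, an imprinted antisense RNA, fell from 38.0 to 20.6 CPM with 31.3 and 30.9 CPM in DMSO, and N4bp2os from 12.6 to 7.41 CPM with 12.6 and 14.1 CPM in DMSO. Ddx18, an RNA helicase, fell from 22.7 to 15.8 CPM and crossed its DMSO values of 18.7 and 19.1 CPM. Kcnq1ot1 and N4bp2os lie antisense to Kcnq1 and N4bp2, and since the strand used in counting is not given in the sources used here, their reads cannot be told from those of the partner.

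**Figure D4:**
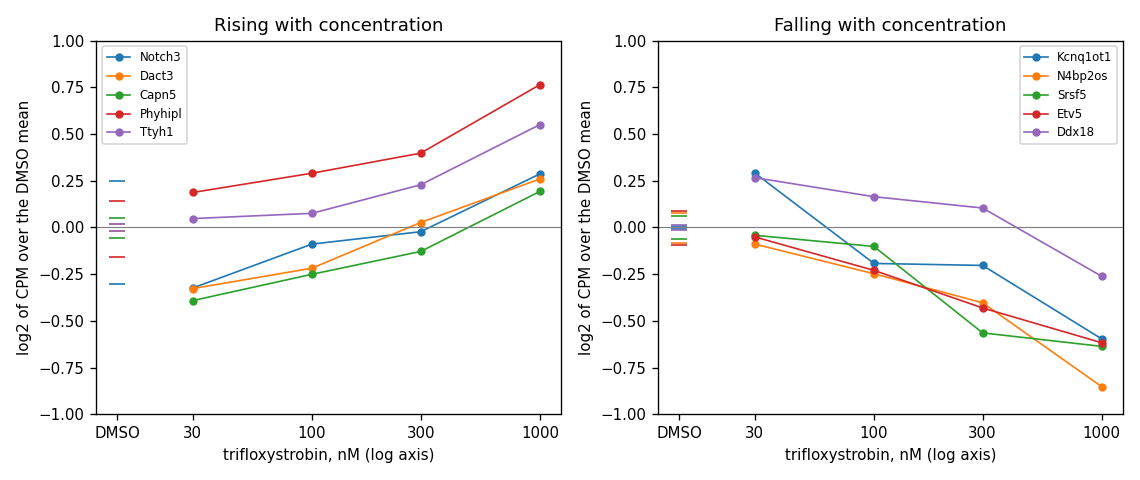
Log2 of CPM over the DMSO mean against concentration on a log axis for the 5 rising (left) and 5 falling genes (right) with the widest range among those that ended outside both DMSO values, with the DMSO libraries as dashes on the left of each panel. Phyhipl and Ttyh1 lie above their DMSO values throughout, and Srsf5 drops between 100 and 300 nM.

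The trend changed when the 100 nM library was left out. In this fit 13 genes were called falling (0.133%) and 3 rising (0.0307%) over 30, 300 and 1000 nM. The falling ones included 8 stress response genes, among them Cth, Trib3, Slc7a11 and Atf5, the tRNA synthetase Aars, Srsf5 and Kcnq1ot1, with adjusted p from 0.0148 (Cth) to 0.0418 (Ddit3). Those rising were Hmmr and Cdk1 of the mitosis list and Dusp1, an immediate early phosphatase (adjusted p = 0.0216 for Hmmr and Dusp1 and 0.0353 for Cdk1). With all 4 libraries none of the 16 was in rising order, and among the falling ones the order held for Srsf5 and Kcnq1ot1.

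The high concentrations (300 and 1000 nM) differed from DMSO in 0 genes (0.0%), with 567 at an unadjusted p under 0.05 and a smallest adjusted p of 0.424. DESeq2 called 3, Srsf5 (log2 fold change -0.60, adjusted p = 0.00114), Rsrp1 (-0.53, adjusted p = 0.0205) and Rbm3 (-0.87, adjusted p = 0.024), all lower. Rbm3, an RNA-binding protein induced by cold, was at 19.3 and 19.7 CPM in DMSO and at 15.5, 14, 9.80 and 11.5 CPM from 30 to 1000 nM, below the controls throughout and lowest at the high concentrations. Rsrp1, an arginine and serine rich protein, was at 279.5 and 288.0 CPM in DMSO and at 219.2, 264.5, 191.8 and 200.4 CPM.

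The same 6 genes were called for the high concentrations in edgeR whether the 30 nM library (0.0614%) or the 100 nM library (0.0615%) was left out. Besides Srsf5, Rsrp1 and Rbm3 these were mt-Tp, lower, and Nebl and Pde8a, higher. Neither left-out library is among those compared, so the same libraries gave the change each time and mainly the estimated spread differed. The fits are therefore not separate checks. Without the 30 nM library the fold was 1.82 for mt-Tp (adjusted p = 0.000649), 1.69 for Nebl (adjusted p = 0.0218) and 1.58 for Pde8a (adjusted p = 0.0243). The mitochondrial tRNA mt-Tp was at 82.3 and 86.0 CPM in DMSO and at 55.5, 101.1, 41.3 and 50.8 CPM from 30 to 1000 nM, above DMSO at 100 nM and below it elsewhere. Pde8a, a phosphodiesterase for cyclic AMP, was at 38.8 and 36.4 CPM in DMSO and at 48.5, 42.5, 51.6 and 66.6 CPM. High against low concentrations gave 0 calls (0.0%), with 321 at an unadjusted p under 0.05, and DESeq2 called only Srsf5 (adjusted p = 0.0359).

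Splicing genes as a group were low at 1000 nM. Of 39 tested, 37 were under the DMSO mean and 27 were at their lowest of the 6 libraries, against 16.5% of all tested genes, with medians of -0.04, 0.07, -0.08 and -0.18 log2 from 30 to 1000 nM. Clk1, a kinase of SR proteins, was at 92.3 and 96.3 CPM in DMSO and at 87.7, 96.9, 72.4 and 63.9 CPM, and Srrm2, a large splicing coactivator, at 1632 and 1510 CPM in DMSO and at 1306, 1537, 1187 and 1241 CPM. The ER chaperone and unfolded protein response genes were also lowest at 1000 nM (18 of 24, against 16.5%), with a median of -0.28 log2 there and between -0.05 and 0.01 at the other concentrations. Hspa5, the main ER chaperone BiP, was at 580.7 and 693.5 CPM in DMSO and at 689.3, 687.5, 647.2 and 521.3 CPM from 30 to 1000 nM. Sdf2l1, another ER-resident member, was at 21.9 CPM in both DMSO libraries and at 16, 25.5, 16.5 and 14.3 CPM.

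Some single genes stood apart at 1000 nM. Sema4f, a semaphorin, was at 35.4 CPM there and at 18.8 to 22.6 CPM in the other 5 libraries. Gfra1, a receptor subunit for GDNF, was at 21.4 CPM against 11.1 to 13.6 CPM, and Tcn2, a carrier of vitamin B12, at 25.1 CPM against 13.7 to 16.2 CPM. Below all others were Cxcl10, an interferon-induced chemokine, at 23.5 CPM against 32.1 to 40.6 CPM, Mir17hg, a host transcript of microRNAs, at 8.21 CPM against 11.3 to 15.9 CPM, and N4bp2os. Hist1h1c, a linker histone, was at 12.1 and 14.9 CPM in DMSO and at 15.1, 15, 20.4 and 25.4 CPM from 30 to 1000 nM. H1f0, another linker histone, was highest at 1000 nM too, with 453.2 CPM against 269.9 to 354.4 CPM. Acta2, smooth muscle actin and a mesenchymal marker, was at 188 CPM at 1000 nM against 69.6 to 129.6 CPM in the other libraries. Of the 8 tested fibroblast and mesenchymal genes, 3 were over the DMSO mean at 1000 nM and 5 under it. The median of that list was -0.03 log2 there. Only 2 of 67 listed clustered histone genes passed the minimum of 10 CPM.

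At 300 nM, Rpl39 and Ndufb4 were the genes farthest above the other libraries together with AC110241.1 (15 against 9.94 to 12.2 CPM). Aven, an inhibitor of apoptosis, was at 7.77 CPM against 10.4 to 11.6 CPM, Etfb, an electron carrier from fatty acid oxidation, at 7.58 CPM against 9.82 to 13.8 CPM, and Abcd4, a transporter of vitamin B12, at 18.9 CPM against 23.8 to 28.3 CPM. At 30 nM the genes farthest above were Trib3, Cth and Acot2, a mitochondrial thioesterase at 30.3 CPM against 12.4 to 19 CPM. Farthest below were Tns1, an actin-linked adhesion protein, at 17.6 CPM against 26.9 to 38.7 CPM, Ppp1r35, a centrosomal protein, at 7.94 CPM against 10.9 to 12.6 CPM, and Oip5, a centromere protein, at 7.07 CPM against 9.48 to 14.7 CPM.

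Of the 18 tested thyroid hormone signalling genes, 15 were under the DMSO mean at 100 nM, where 11 were lowest (24.3% of all tested genes) and the median was -0.12 log2, and 5 were under it at 1000 nM. Thra, the gene of the receptor that these cells overexpress, was at 79.8 and 69.8 CPM in DMSO and at 74.0, 62.9, 69.1 and 77.6 CPM from 30 to 1000 nM (log2 fold change -0.08 ± 0.10 SE). Klf9, a target induced by T3, was at 27.8 and 31.3 CPM in DMSO and at 32.5, 24.0, 32.1 and 31.2 CPM (0.02 ± 0.13 SE). Hr, another T3 target, was under the minimum, at 4.19 and 4.29 CPM in DMSO and 3.13 to 5.60 CPM with trifloxystrobin. At all 4 concentrations 2 of the 18 were below both controls and 0 above, against 8.04% and 7.94% of all tested genes. Rxrb, a partner receptor, was the member with the widest change, at 14.8 and 14.2 CPM in DMSO and 10.2 to 13.2 CPM with trifloxystrobin.

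Among Notch genes, 5 of 18 were below both controls and 1 was above, against 8.04% and 7.94% of all tested genes. The list medians were -0.057, -0.109, -0.094 and -0.004 log2 from 30 to 1000 nM. Corrected for GC and length, they were -0.017, -0.041, -0.046 and 0.028 log2. Notch2, the most abundant receptor, was at 355.2 and 322.8 CPM in DMSO and at 273.5, 308.4, 303.5 and 281.6 CPM from 30 to 1000 nM (-0.22 ± 0.08 SE), while the effector Hes1 went the other way, at 46.9 and 48.6 CPM in DMSO and 48.6, 56, 55.7 and 63.8 CPM. Of 26 tested p53 targets, 4 were above both controls and 0 below, against 7.94% and 8.04% of all tested genes. Ccng1, cyclin G1 (chr11:40748552-40755311, minus strand, GRCm38), was at 388.1 and 361.8 CPM in DMSO and at 396.3, 554.7, 463.6 and 550.8 CPM (0.39 ± 0.13 SE, adjusted p = 0.815), with 100 and 1000 nM highest. Cdkn1a, the cell cycle inhibitor p21, was at 45.6 and 38.4 CPM in DMSO and at 43.1, 46, 44.1 and 54.7 CPM, above both controls at 100 nM by less than 1 CPM and at 1000 nM by more.

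The 100 nM library was also set beside the strobilurins tested at the same concentrations, in values scaled over all 16 libraries. The summed stress response genes were at 5755, 3359, 5082 and 4731 CPM for trifloxystrobin from 30 to 1000 nM and at 3731, 4322, 2987 and 2855 CPM for pyraclostrobin, with 4578 and 5115 CPM in DMSO. The summed replication genes were at 2004, 2993, 2258 and 2116 CPM for trifloxystrobin and at 2602, 2392, 3868 and 4267 CPM for pyraclostrobin, with 2504 and 2166 CPM in DMSO. Stress response values below both DMSO libraries and replication values above both thus occurred together at 100 nM of trifloxystrobin and at 30, 300 and 1000 nM of pyraclostrobin. Picoxystrobin at 30 nM (3692 and 2520 CPM) also lay on these sides of DMSO. The summed p53 targets were at 2747, 3090, 2869 and 3246 CPM for trifloxystrobin from 30 to 1000 nM, at 3028, 3194, 5631 and 6573 CPM for pyraclostrobin, and at 2851 and 2658 CPM in DMSO. Over 9812 genes, the library nearest to trifloxystrobin at 100 nM was pyraclostrobin at 30 nM (median difference 0.119 log2, with 1 CPM added to each value), ahead of the second DMSO library (0.123) and every other trifloxystrobin library.

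**Figure D5:**
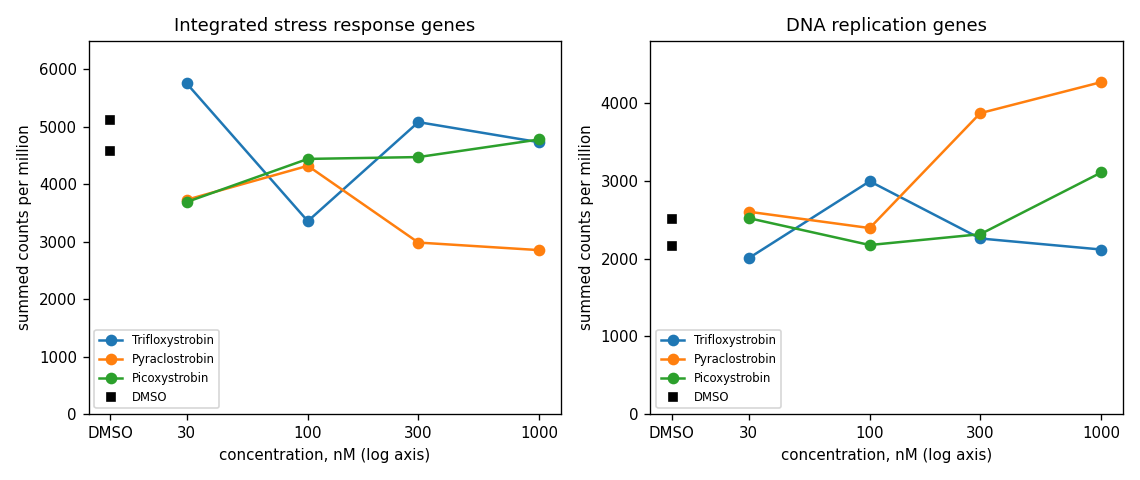
Summed CPM of the integrated stress response list (left) and the DNA replication list (right) against concentration on a log axis for 3 strobilurins, with the 2 DMSO libraries as squares, 1 point per library. Trifloxystrobin at 100 nM (3359 and 2993 CPM) departs from its neighbours at 30 and 300 nM in both panels, and pyraclostrobin at 1000 nM is at 2855 and 4267 CPM.

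At matched concentrations 2 pairs of compounds were tested, with 4 libraries each and the concentration as a block. The comparison of pyraclostrobin with trifloxystrobin called 0 of 9771 genes (0.0%), with 1936 at an unadjusted p under 0.05, while DESeq2 called 110. The differences for Chac1 (-1.14 log2, 95% interval -3.16 to 0.88, pyraclostrobin minus trifloxystrobin) and Ccng1 (1.11, 0.38 to 1.84, adjusted p = 0.206) had wide intervals. Without trifloxystrobin at 100 nM, which drops that concentration from the block, 709 genes were called higher (7.25%) and 685 lower (7.0%) with pyraclostrobin. These included 39 of 42 replication genes, 26 of 46 mitosis genes and 16 of 27 p53 targets higher, and 23 of 30 stress response genes lower. In this fit Chac1 was 4.44-fold lower (adjusted p = 0.00243), Ccng1 2.75-fold higher (adjusted p = 0.00868) and Cdkn1a 1.99-fold higher (adjusted p = 0.0411) with pyraclostrobin. Among nuclear respiratory genes, 6 of 35 in complex I and 1 of 13 in complex III were called higher in this fit. For complexes II, IV and V it was 2 of 26, and 0 were called lower in these lists. Of the other libraries left out singly, only pyraclostrobin at 100 nM gave calls (1411 genes), and the rest gave 0. That fit also drops 100 nM from the block, so it is nearly the same comparison and not a separate check.

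The comparison of picoxystrobin with trifloxystrobin called 0 of 9733 genes (0.0%), with 1113 at an unadjusted p under 0.05, and DESeq2 called 1. Leaving out 1 library gave calls only when it was a library at 1000 nM (620 or 647 genes), and 0 otherwise. Either omission takes 1000 nM out of the comparison of the compounds, so these fits are nearly the same and not separate checks. Without trifloxystrobin at 1000 nM, which drops that concentration from the block, 259 genes were higher (2.66%) and 361 lower (3.71%) with picoxystrobin. In this fit 1 of 30 stress response genes was called lower and 0 higher, and the genes with the widest differences were Kctd12, Ctgf and Rpl22l1, higher, and Cdc42ep2, Gm13889 and Mbd6, lower, with differences of 1.66-fold to 1.84-fold and adjusted p from 0.043 to 0.0486. A difference called in one pair of compounds and not in the other was not tested between the pairs.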

How the data were processed

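The authors prepared RNA libraries with the SENSE total RNA kit, sequenced them single-end on a NextSeq500, aligned the reads with Bowtie2 (version 2.3.2.2, build mm10, from the submitters' processing notes) and counted them per gene with htseq-count. The deposited values are these raw counts for 54658 genes, 1 table per library. The annotation and the strand used in counting are not given in the sources used here. Of the symbols, 54092 matched GENCODE M21, which gave positions. Comparing all 120 pairs of the 16 libraries found 1 identical pair, DMSO replicate 2 and azoxystrobin at 100 nM.

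Genes averaging over 10 CPM in the 6 libraries were tested with edgeR 4.0.16 (TMM scaling, quasi-likelihood test) in R 4.3.3, with DESeq2 1.42.0 as an alternative. Calls required a Benjamini-Hochberg adjusted p under 0.05. CPM values were scaled with TMM and log2 values used a prior count of 2. The fits covered the 4 concentrations against DMSO, a trend on log10 concentration, high against low concentrations, each of these against DMSO, and pyraclostrobin or picoxystrobin against trifloxystrobin with the concentration as a block. Error and counting precision rest on 13044534 to 17818542 counts per library. The code was tested on simulated data. Tables and plots were made with pandas 2.3.3 and matplotlib 3.10.9.

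Named genes were the 8 higher and 8 lower with the smallest p among those outside both controls in all 4 libraries, the 5 rising and 5 falling with the widest range, the 3 highest and 3 lowest genes of each library relative to the other 5, the 2 most abundant and 2 most changed members of each list, genes that the study names, and the 3 higher and 3 lower most changed genes called in other tests. Aars, Aldh1l2, Asns, Cd63, Cdk1, Clk1, Ddit3, Dusp1, Eif4ebp1, Hmmr, Nid2, Pde8a, Rsrp1, Tyms, mt-Tp and the printed promoters were chosen after their values were seen. The members and the 42 gene lists were chosen with earlier results of these data known. Alternatives covered normalization, filters, prior count, reference library, scale of concentration, samples in the fit and each library left out. Counts without the 100 nM library and the GC and length correction of folds were added after seeing the data. Some genes that meet the naming rule are not reported here.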

Additional observations from a re-analysis of the deposited data

Results flagged for a closer look

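Within the 4 trifloxystrobin libraries, the gap between the highest or lowest value and its nearest neighbour was divided by the whole range and compared with Dixon's critical value for 4 samples. Of 41 list sums and 190 named genes, 2 sums and 18 genes passed it. Chance passes about 1 in 20 groups that were not selected, but some of these genes were named because 1 library stood apart or for the size of their change, so the count of genes cannot be set against that rate. The 100 nM library was the distant one for 12 of the 18 genes, 1000 nM for 3, 30 nM for 2 and 300 nM for 1.

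At 100 nM the summed complex III genes were high (ratio 0.839) and the summed TGF-beta, BMP and ID genes were low (0.95). Single genes high at 100 nM were Rps3a1 (0.849), Hspg2 (0.874), Dna2 (0.925), Atp5b (0.886), Cox7c (0.83), Pold1 (0.845) and Hsp90ab1 (0.909). Those low at 100 nM were Atf4 (0.844), Ncor1 (0.978), Sox4 (0.864), Fzd2 (0.832) and Klf9 (0.839). The 1000 nM library was distant for Sema4f (0.857) and Jun (0.896), both high, and for Ddx21 (0.866), low. The 30 nM library was low for Acadl (0.912) and Ctnnb1 (0.835), and the 300 nM library was high for Rpl39 (0.956).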

How the results depend on the processing

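Calls depended on which library was left out. Leaving out 1 library in turn gave 0 to 3 calls for trifloxystrobin against DMSO, 0 to 16 for the trend, 0 to 368 for high against low, 0 to 247 for low against DMSO, 0 to 6 for high against DMSO, 0 to 1411 for pyraclostrobin and 0 to 647 for picoxystrobin against trifloxystrobin. Where an arm kept 1 library, it was assumed to vary like the others. DESeq2 called 1 gene for high against low, 3 for high against DMSO, 110 for pyraclostrobin and 1 for picoxystrobin. Without a filter on low counts, 2 genes were called for trifloxystrobin against DMSO, 20 for high against low, 8 for low and 38 for high against DMSO. Without the concentration block both compound comparisons again called 0 genes.

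Counts over 1.5-fold, higher and lower, moved with the reference and the minimum. Against DMSO replicate 1 alone they were 62 and 60 at 30 nM, 27 and 24 at 300 nM, and 46 and 28 at 1000 nM. Against DMSO replicate 2 alone they were 6 and 3 at 30 nM and 86 and 152 at 100 nM, with 14 lower at 300 nM. For averages over 1 CPM they were 155 and 221, 200 and 340, 97 and 172, and 224 and 263 from 30 to 1000 nM. For averages over 50 CPM they were 7 and 2, 6 and 40, 2 and 1, and 7 and 4, and 148 genes were in rising and 159 in falling order, 10 and 8 of them with a ratio over 5 to 4. With the GC and length correction, 8 genes were lower at 300 nM. Without the 100 nM library, 1327 genes lay above and 1439 below both controls, and 1963 were in rising and 1983 in falling order. A change of the minimum alters how many genes are counted, and fewer libraries leave fewer conditions to meet. The cause of the other differences was not tested.

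Of 2651 pairs of a named gene and a setting, 132 changed sign, in 61 genes, and 0 did so among the 51 genes over 0.25 log2. Of 574 list medians, 16 moved, by at most 0.176 log2.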
